A study of Mus musculus with 18 samples.

Results

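The mRNAs of 10 genes of the tumor necrosis factor (TNF) receptor system of mouse B cells were followed in 18 RNASeq libraries of splenic B cells. Of these, 9 encode receptors of the TNF receptor superfamily (Tnfrsf13b, Tnfrsf13c, Tnfrsf17, Cd40, Fas, Cd27, Tnfrsf1b, Tnfrsf9 and Tnfrsf18), and the other is Traf1, an adaptor that binds the tails of several of these receptors. They were taken by their Entrez Gene numbers, so that 10 of the 28096 genes in the count tables are described here, and all 10 were present in the tables. B cells were purified with the Miltenyi isolation kit from spleens of C57BL/6 N mice of at least 8 weeks of age. WT mice were compared with Ubqln1-/- mice, which lack exon 2 of Ubqln1 in every cell because the exon was removed in ES cells by transient Cre expression. For 4 hr the cells received no stimulus (resting), 10 μg/mL of an anti-IgM F(ab)2, which crosslinks the B cell receptor (BCR), or 20 μg/mL of LPS from K12 E. coli, which acts through TLR4. Each of the 6 groups had 3 libraries, described as biological replicates. Triplicate wells were pooled for RNA, and how many mice stand behind a library is not stated in the sources used here.

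TNF receptor superfamily proteins bind trimeric ligands of the TNF family. Their tails recruit TRAF adaptors, which feed the NF-kB and MAP kinase pathways, or death domain proteins, which lead to caspase activation. In B cells, BAFF receptor (Tnfrsf13c) carries the survival signal of BAFF, CD40 receives help from T cells expressing CD40 ligand, and TACI (Tnfrsf13b) and BCMA (Tnfrsf17) bind BAFF and APRIL at later steps. TRAF1 has no RING domain, unlike other TRAFs, and is itself a target gene of NF-kB.

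Total counts ran from 15368941 to 41072854 per library, with a median of 23257531. Every WT library with LPS was larger than every Ubqln1-/- library with LPS. Levels are given as RPKM, the read count per kilobase of exon, scaled to the library's counted reads after TMM adjustment, and as mean ± SD of 3 libraries. Ubqln1 itself had 63.5 ± 1.08 RPKM in resting WT cells and 26.3 ± 2.23 in resting Ubqln1-/- cells (n = 3 each). Across conditions the WT libraries lay between 62.3 and 92.0 RPKM and the Ubqln1-/- libraries between 24.8 and 34.8, without overlap. Counts cover the whole gene and not the deleted exon alone, so reads from the remaining exons were still counted. B cell markers (Cd79a, Cd79b, Ms4a1, Cd22 and Pax5) were abundant in every library, and Pax5, the lowest, was at 39.7 RPKM or more. Their summed level was 3350 to 3930 RPKM in resting libraries, 1090 to 1430 with anti-IgM and 2090 to 2750 with LPS. The T cell receptor chains Cd3e, Cd3d and Cd3g did not exceed 0.312 RPKM in any library, and Foxp3 was the only T cell marker above 1 RPKM (3.85 to 7.75). Summed over 4 genes, NK cell markers reached at most 0.51 RPKM. Myeloid markers summed to between 12.2 and 18.1 RPKM in resting libraries and to between 5.07 and 10.1 in stimulated ones, and Adgre1 reached 12.2. The part of these other cells in the results was not tested. In bulk RNA, fewer cells of a type and less RNA per cell cannot be told apart.

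Tnfrsf13c, Cd40 and Tnfrsf13b had the highest levels at rest. In resting WT cells the order of the RPKM levels was Tnfrsf13c (188), Cd40 (52.1), Tnfrsf13b (42.3), Traf1 (29.1), Tnfrsf1b (21.4), Tnfrsf18 (9.69), Cd27 (3.46), Fas (2.19), Tnfrsf9 (0.926) and Tnfrsf17 (0.297). The neighbours Cd40 and Tnfrsf13b overlapped between libraries, as did Traf1 and Tnfrsf1b, and Cd27 and Fas, while the other neighbours did not. With anti-IgM the order in WT cells became Tnfrsf13c, Traf1, Tnfrsf1b, Tnfrsf13b, Cd40, Tnfrsf18, Cd27, Fas, Tnfrsf9 and Tnfrsf17. In that order Traf1 (40.8 to 58.1 RPKM) and Tnfrsf1b (21.9 to 41.0) touched at their limits, and Tnfrsf1b, Tnfrsf13b (25.8 to 30.6) and Cd40 (20.3 to 34.4) were not separated. With LPS, Cd40 and Traf1 stood together behind Tnfrsf13c, at 163 to 165 and 127 to 185 RPKM in WT cells. The exon length behind an RPKM ranged from 750 bases for Tnfrsf13b to 4913 for Tnfrsf1b. The plot of RPKM by library shows the values of all 10 genes.

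**Figure D1:**
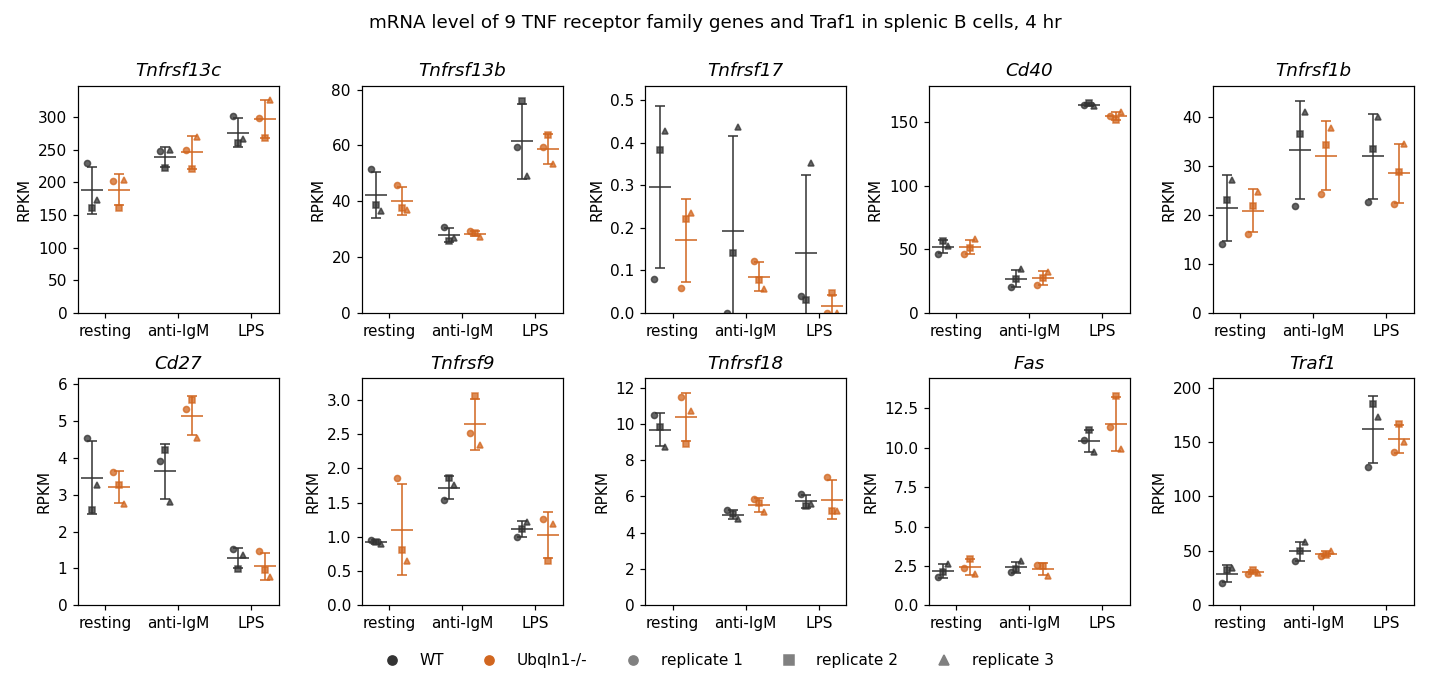
RPKM (linear axis from 0) of each gene in WT (black) and Ubqln1-/- (orange) B cells at rest or after 4 hr with anti-IgM or LPS. Points are libraries, with the shape giving the replicate number, and bars are the mean and SD of 3 libraries, drawn down to 0 only. Cd40 fell from 52.1 to 27.1 with anti-IgM and rose to 164 with LPS in WT cells, and the genotypes lay close together.

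Within each genotype, the stimuli moved most members. A gene was called at a Benjamini-Hochberg adjusted p under 0.05 in edgeR's quasi-likelihood test over 14161 genes, and 9 of the 10 members could be tested, since Tnfrsf17 had at most 8 reads in any library. With anti-IgM in WT cells, 3 members rose (Tnfrsf13c, Tnfrsf9 and Traf1), 3 fell (Tnfrsf13b, Cd40 and Tnfrsf18) and 3 did not pass, while 64.6% of all tested genes were called, 32.4% higher and 32.2% lower. With LPS in WT cells, 5 rose (Tnfrsf13b, Tnfrsf13c, Cd40, Fas and Traf1), 2 fell (Cd27 and Tnfrsf18) and 2 did not pass, beside 61.2% of all genes, 31.2% higher and 30.1% lower. The direct comparison of LPS with anti-IgM in WT cells called 4 members higher with LPS (Tnfrsf13b, Cd40, Fas and Traf1) and 1 lower (Cd27), beside 32.4% of all genes, 17.4% higher and 15% lower. For Ubqln1-/- cells, 4 members were higher and 3 lower with anti-IgM, beside 65.3% of all genes (32.9% higher and 32.4% lower). With LPS they were 5 and 2, beside 60.7% (30.6% higher and 30.2% lower), and between the stimuli 4 and 2, beside 31.3% (16.8% higher and 14.5% lower). The called share of the tested members was thus near that of all genes for each stimulus against rest. These counts are from the fit without a term for replicate number (a block). With that block, Tnfrsf1b was also called higher with each stimulus in each genotype (edgeR adjusted p from 1.21e-07 to 1.14e-05). Over all genes, the block raised the WT calls from 9146 to 9905 with anti-IgM and from 8673 to 9625 with LPS. At the study's own thresholds, a log2 fold change over 2 in size and an adjusted p under 0.001, 0 members passed with anti-IgM in WT and Ubqln1-/- cells (3.76% and 3.64% of all genes), and 2 with LPS, Fas and Traf1, in each (1.8% and 1.74%). Between the stimuli, 2 passed in WT (Cd40 and Fas, 2.51% of all genes) and 3 in Ubqln1-/- cells (with Cd27, 2.24%). The median log2 fold change of the 9 tested members in WT cells was 0.12 with anti-IgM and 0.55 with LPS, against -0.01 over all genes for each stimulus. The anti-IgM and LPS comparisons share their resting libraries.

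**Figure D2:**
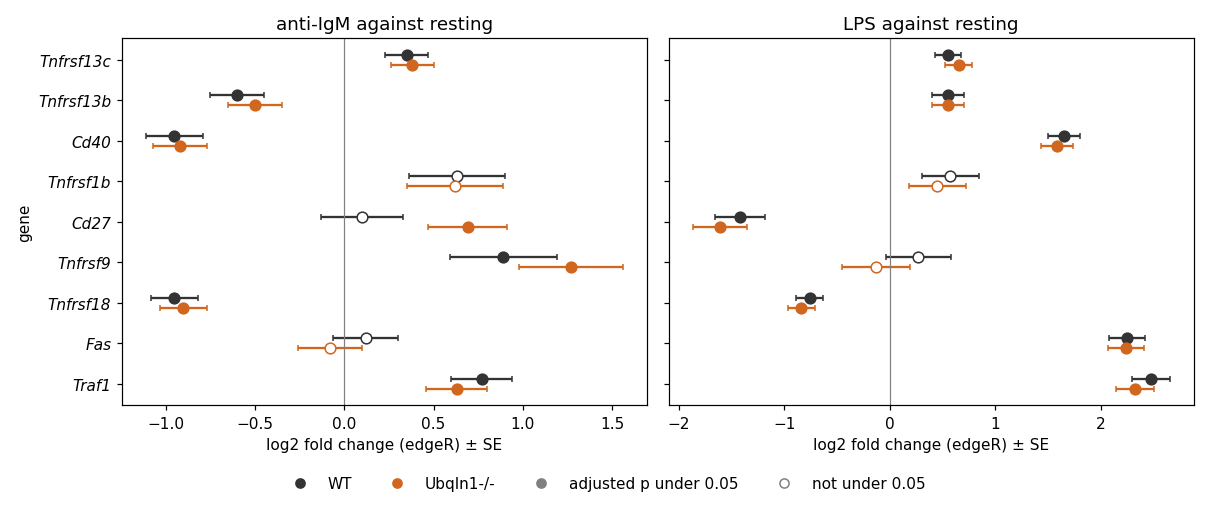
Log2 fold change with its standard error (edgeR) of the 9 tested genes after anti-IgM (left) and LPS (right) against resting cells, in WT (black) and Ubqln1-/- (orange). Filled points have an adjusted p under 0.05. Cd40 and Tnfrsf13b lie below 0 with anti-IgM and above 0 with LPS, and Traf1 (2.47) and Fas (2.25) have the highest values with LPS in WT cells.

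Tnfrsf13c (Entrez Gene 72049, chr15:82221742-82224380 in GRCm38.p6) encodes the BAFF receptor, on which mature B cells depend for survival. Replicates 1, 2 and 3 had 229, 161 and 173 RPKM in resting WT cells, 248, 222 and 249 with anti-IgM, and 302, 260 and 267 with LPS. The Ubqln1-/- values were 202, 161 and 204 at rest, 249, 220 and 270 after anti-IgM, and 298, 268 and 326 after LPS. Replicate 2 was the lowest of its group in all 6 groups, and with LPS every library was above every resting library of its genotype. The rise with LPS was 1.47-fold in WT cells (log2 fold change 0.55, SE 0.12, edgeR adjusted p = 0.00104) and 1.57-fold in Ubqln1-/- cells (0.65, SE 0.13, adjusted p = 0.000257). With anti-IgM it was 1.28-fold in WT (0.35, SE 0.12, edgeR adjusted p = 0.0209), where resting replicate 1 overlapped the stimulated libraries, and 1.30-fold in Ubqln1-/- (0.38, SE 0.12, adjusted p = 0.0131). These anti-IgM calls were lost without WT resting replicate 2 (edgeR adjusted p = 0.0966), WT resting replicate 3 (0.0744) or WT anti-IgM replicate 3 (0.0528), and without Ubqln1-/- resting replicate 2 (0.0672). LPS exceeded anti-IgM by 0.20 (SE 0.12) on the log2 scale in WT cells, with an edgeR adjusted p of 0.238, which became 0.0424 with a block for replicate number. In the knockout that difference was 0.27 (SE 0.12), with an edgeR adjusted p of 0.110, and 0.00862 with the block.

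Tnfrsf13b (Entrez Gene 57916, chr11:61126283-61153170) encodes TACI, a receptor for BAFF and APRIL that takes part in T cell independent antibody responses. Replicates 1, 2 and 3 in WT cells had 51.7, 38.7 and 36.5 RPKM at rest, 30.6, 25.8 and 26.9 with anti-IgM, and 59.6, 75.8 and 49.1 with LPS. Ubqln1-/- cells had 45.9, 37.7 and 36.8 at rest, 29.3, 28.6 and 27.3 with anti-IgM, and 59.3, 63.8 and 53.2 with LPS. Every anti-IgM library was below every resting one, and every LPS library above every anti-IgM one. Tnfrsf13b fell 1.51-fold with anti-IgM in WT (log2 fold change -0.60, SE 0.15, edgeR adjusted p = 0.00229) and 1.41-fold in Ubqln1-/- cells (-0.50, SE 0.15, adjusted p = 0.00797). LPS raised it 1.46-fold in WT (0.55, SE 0.15, edgeR adjusted p = 0.00379), with 1 LPS library inside the resting range, and 1.47-fold in Ubqln1-/- (0.55, SE 0.15, adjusted p = 0.00387). Between the stimuli it differed 2.22-fold in WT and 2.07-fold in Ubqln1-/- cells (edgeR adjusted p = 1.11e-05 and 3.41e-05). In the RefSeq annotation the Tnfrsf13b gene overlaps Usp22, which had 1801 to 6916 reads per library, and the libraries do not mark strand.

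Cd40 (Entrez Gene 21939, chr2:165055614-165071654), the receptor for CD40 ligand on helper T cells, moved in opposite directions with the stimuli. Its RPKM in replicates 1, 2 and 3 of WT cells was 46.6, 56.7 and 52.9 at rest, 20.3, 26.6 and 34.4 with anti-IgM, and 164, 165 and 163 with LPS. Ubqln1-/- libraries had 46.4, 51.2 and 58.0 at rest, 21.7, 27.8 and 32.6 with anti-IgM, and 155, 152 and 158 with LPS. The conditions were fully separated in each genotype. Anti-IgM lowered Cd40 by 1.93-fold in WT (log2 fold change -0.95, SE 0.16, edgeR adjusted p = 4.61e-05) and 1.90-fold in Ubqln1-/- (-0.92, SE 0.15, adjusted p = 5.7e-05). LPS raised it 3.15-fold in WT (1.65, SE 0.15, edgeR adjusted p = 1.53e-07) and 2.99-fold in Ubqln1-/- (1.58, SE 0.15, adjusted p = 2.42e-07). The levels with LPS and with anti-IgM therefore differed 6.07-fold in WT cells and 5.68-fold in Ubqln1-/- cells (edgeR adjusted p = 2.21e-09 and 3.5e-09).

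The ratio of Tnfrsf13c to Cd40 RPKM in WT cells was 3.68 ± 1.09 at rest, 9.26 ± 2.62 with anti-IgM and 1.68 ± 0.144 with LPS (SD, n = 3). The Ubqln1-/- ratios were 3.67 ± 0.618, 9.21 ± 1.97 and 1.91 ± 0.152. The 3 conditions did not overlap in either genotype, and each pair of conditions gave p = 0.1 in a two-sided exact permutation test, the smallest that 3 against 3 libraries allow. Groups of 3 that do not overlap always give this value, so the test adds nothing to the lack of overlap. The ratio of Cd40 to Tnfrsf13b, which fell together with anti-IgM, was 1.27 ± 0.32 at rest and 0.991 ± 0.311 with anti-IgM in WT cells, where the libraries overlapped, and 2.75 ± 0.574 with LPS. Summed over the 9 receptors, RPKM was 320 ± 34.3 in resting WT cells, 341 ± 20.5 with anti-IgM and 552 ± 14.8 with LPS. Cd40 made up 16.5% of this sum at rest, 7.92% with anti-IgM and 29.7% with LPS in WT cells, and Tnfrsf13c 58.3%, 70.4% and 49.9%.

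Tnfrsf17 (Entrez Gene 21935, chr16:11313232-11320074) encodes BCMA, the receptor of plasma cells for APRIL. It was near the limit of detection, with 16 reads over the 3 resting WT libraries, 10 with anti-IgM and 10 with LPS. The Ubqln1-/- groups had 9, 6 and 1 reads. It was at 0 reads in WT anti-IgM replicate 1 and in Ubqln1-/- LPS replicates 1 and 3, where 3 reads, the limit that a count of 0 allows, would be 0.147, 0.22 and 0.203 RPKM. This limit covers counting error only. Replicate 3 of WT cells had 7, 7 and 8 reads at rest, with anti-IgM and with LPS. These same 3 libraries had the most Jchain, a plasma cell gene, at 186, 171 and 141 RPKM, while Jchain was at 56.8 to 90.4 in the other WT libraries and 35.1 to 68.2 in Ubqln1-/- libraries. WT resting replicate 2 also had 8 reads of Tnfrsf17, with Jchain at 90.4 RPKM. The whole plasma cell list (Sdc1, Jchain, Prdm1 and Irf4) summed to 184 to 296 RPKM in resting WT and 153 to 178 in resting Ubqln1-/- libraries, with none of the 4 at 0 in any. The sum was higher with anti-IgM (495 to 600 in WT, 424 to 471 in Ubqln1-/-) and with LPS (362 to 435 and 331 to 364). Irf4 alone reached 421 RPKM. With each stimulus in WT cells, 1 of the 4 was called higher and 2 lower, beside 32.4% and 32.2% of all genes with anti-IgM and 31.2% and 30.1% with LPS. Jchain was taken from that list and set beside Tnfrsf17 after its values were seen, and whether plasma cells gave these reads was not tested.

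**Figure D3:**
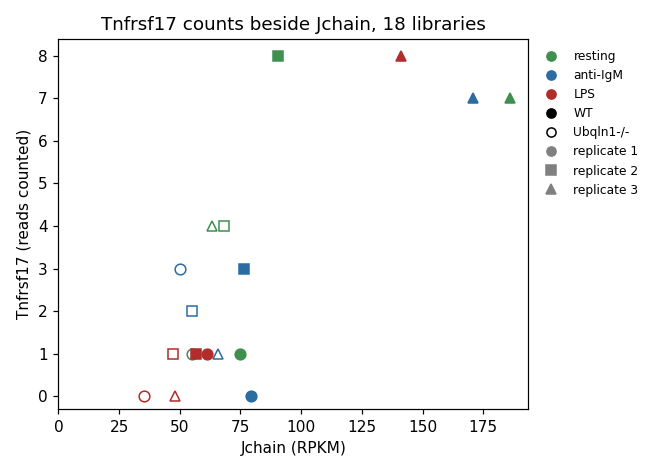
Reads of Tnfrsf17 (BCMA) against Jchain RPKM in the 18 libraries, with color for the condition, filled points for WT, open points for Ubqln1-/- and shape for the replicate number. The 3 WT libraries of replicate 3 lie at 141 RPKM of Jchain or more with 7 or 8 reads, and 1 other library, WT resting replicate 2, also has 8.

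Tnfrsf1b (Entrez Gene 21938, chr4:145212368-145246870) encodes TNF receptor 2, which has no death domain and recruits TRAF2 and TRAF1. RPKM in replicates 1, 2 and 3 of WT cells was 14.1, 23.0 and 27.2 at rest, 21.9, 36.6 and 41.0 with anti-IgM, and 22.7, 33.4 and 39.9 with LPS. Ubqln1-/- libraries had 16.2, 21.9 and 24.6, then 24.2, 34.2 and 37.8, then 22.3, 28.7 and 34.4. Replicate 1 was lowest and replicate 3 highest in all 6 groups, so the groups overlapped although each replicate number was higher with either stimulus than at rest. Within replicate numbers 1, 2 and 3, the log2 ratio of anti-IgM to rest was 0.63, 0.67 and 0.59 for WT cells, and 0.58, 0.64 and 0.62 for the knockout. For LPS the ratio was 0.68, 0.54 and 0.55 for WT, and 0.46, 0.39 and 0.49 for the knockout. Without a block, Tnfrsf1b was not called with anti-IgM in WT (log2 fold change 0.63, SE 0.27, edgeR adjusted p = 0.0556) or Ubqln1-/- (0.62, SE 0.27, adjusted p = 0.0578), nor with LPS in WT (0.57, SE 0.27, adjusted p = 0.0798) or Ubqln1-/- (0.45, SE 0.27, adjusted p = 0.171). With the replicate block the SE fell to about 0.065 and the edgeR adjusted p-values of the same 4 comparisons were 1.21e-07, 1.51e-07, 3.58e-07 and 1.14e-05. The difference between LPS and anti-IgM was not called without the block, and with it edgeR called only Ubqln1-/- cells, by a small amount (-0.17, SE 0.064, adjusted p = 0.0402). Leaving out 1 library made some calls without the block: anti-IgM in WT without WT anti-IgM replicate 1 or WT resting replicate 3 (edgeR adjusted p = 0.0112 and 0.0284), LPS in WT without WT LPS replicate 1 or WT resting replicate 3 (0.0278 and 0.0394), and anti-IgM in Ubqln1-/- without its replicate 1 (0.0271).

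**Figure D4:**
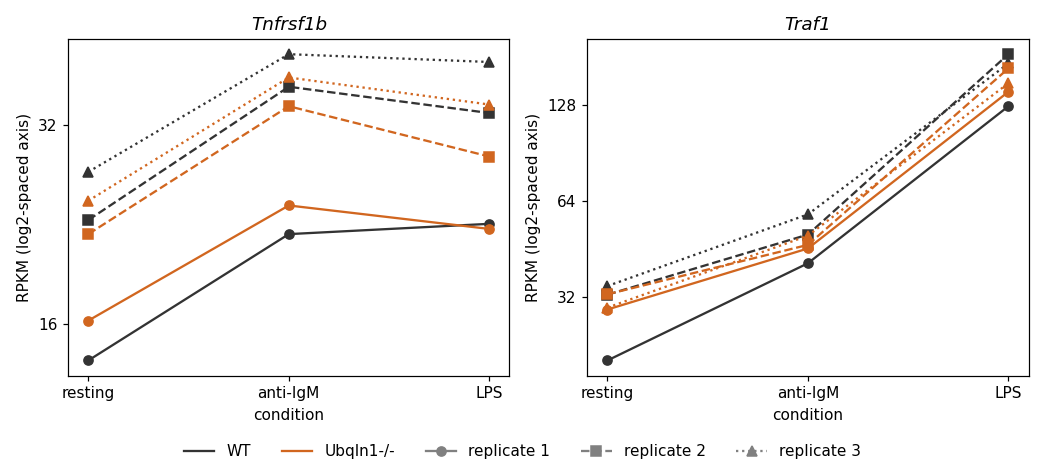
RPKM (log2-spaced axis) of Tnfrsf1b (left) and Traf1 (right) by condition, with each line joining the libraries of 1 genotype (WT black, Ubqln1-/- orange) and 1 replicate number (line style and shape). For Tnfrsf1b the lines run nearly parallel at different heights between rest and anti-IgM, from 14.1 to 27.2 at rest in WT, and for Traf1 the change with LPS is larger than the spread between lines.

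Traf1 (Entrez Gene 22029, chr2:34941750-34961812) had the largest response to LPS among the members. In WT cells its RPKM in replicates 1, 2 and 3 was 20.2, 32.5 and 34.6 at rest, 40.8, 50.2 and 58.1 with anti-IgM, and 127, 185 and 173 with LPS. In Ubqln1-/- cells it was 29.2, 32.6 and 29.6, then 45.4, 46.6 and 49.8, then 141, 167 and 150. The conditions did not overlap in either genotype, and replicate 1 was the lowest of its group in all 6 groups. LPS raised Traf1 5.53-fold in WT (log2 fold change 2.47, SE 0.18, edgeR adjusted p = 1.09e-08) and 5.01-fold in Ubqln1-/- cells (2.32, SE 0.18, adjusted p = 1.75e-08). Anti-IgM raised it 1.70-fold in WT (0.77, SE 0.17, edgeR adjusted p = 0.000843) and 1.55-fold in Ubqln1-/- (0.63, SE 0.17, adjusted p = 0.00368). LPS exceeded anti-IgM 3.25-fold in WT and 3.23-fold in Ubqln1-/- cells (edgeR adjusted p = 6.2e-07 and 7.9e-07). Ordered by log2 fold change with LPS, Traf1 stood at place 122 of the 14161 tested genes in each genotype.

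Fas (Entrez Gene 14102, chr19:34290647-34327775), the death receptor for Fas ligand, rose with LPS and was not called with anti-IgM. Its RPKM in WT replicates 1, 2 and 3 was 1.81, 2.10 and 2.65 at rest, 2.13, 2.31 and 2.78 with anti-IgM, and 10.5, 11.1 and 9.70 with LPS. The Ubqln1-/- values were 2.34, 2.96 and 2.00 at rest, 2.53, 2.47 and 1.85 with anti-IgM, and 11.3, 13.3 and 9.90 with LPS. Every LPS library lay above every other library, while anti-IgM and resting libraries overlapped. With LPS the rise was 4.74-fold in WT (log2 fold change 2.25, SE 0.17, edgeR adjusted p = 1.8e-08) and 4.72-fold in Ubqln1-/- (2.24, SE 0.17, adjusted p = 1.58e-08). With anti-IgM the log2 fold change was 0.12 in WT (SE 0.18, edgeR adjusted p = 0.571) and -0.08 in Ubqln1-/- (SE 0.18, adjusted p = 0.702). LPS against anti-IgM was 4.35-fold in WT and 5.00-fold in Ubqln1-/- (edgeR adjusted p = 3.02e-08 and 1.3e-08).

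Tnfrsf9 (Entrez Gene 21942, chr4:150920155-150946104) encodes 4-1BB, a costimulatory receptor best known on activated T cells. It had 30 to 217 reads per library. RPKM in WT replicates 1, 2 and 3 was 0.950, 0.930 and 0.897 at rest, 1.53, 1.86 and 1.76 with anti-IgM, and 1.00, 1.12 and 1.22 with LPS. In Ubqln1-/- cells it was 1.86, 0.806 and 0.641 at rest, 2.52, 3.06 and 2.34 with anti-IgM, and 1.26, 0.643 and 1.19 with LPS. Anti-IgM libraries were the highest of their genotype, and Ubqln1-/- resting replicate 1 stood above its group. Anti-IgM raised Tnfrsf9 1.85-fold in WT (log2 fold change 0.89, SE 0.30, edgeR adjusted p = 0.0171) and 2.41-fold in Ubqln1-/- (1.27, SE 0.29, adjusted p = 0.000981). With LPS the log2 fold change was 0.27 (SE 0.31, edgeR adjusted p = 0.466) in WT and -0.13 (SE 0.32, adjusted p = 0.745) in Ubqln1-/- cells. The 8 T cell markers summed to 4.18 to 5.44 RPKM at rest, 7.47 to 8.21 with anti-IgM and 4.97 to 6.21 with LPS. This sum was mostly Foxp3, no other marker of the list exceeded 0.377 RPKM, and Cd3e was at 0 in 11 of 18 libraries. Of 2 tested T cell markers, 1 rose and 1 fell with anti-IgM in Ubqln1-/- cells, and 2 rose with LPS. In WT cells 1 rose and 1 was not called with each stimulus. The part of T cells was not tested. For Tnfrsf9, LPS was 2.63-fold below anti-IgM in Ubqln1-/- cells (-1.40, SE 0.29, edgeR adjusted p = 0.0014). In WT cells the difference of -0.62 (SE 0.29) was not called (edgeR adjusted p = 0.112).

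Cd27 (Entrez Gene 21940, chr6:125232620-125237136), the receptor for CD70 and a marker of memory B cells in human blood, fell with LPS. WT replicates 1, 2 and 3 had 4.54, 2.60 and 3.26 RPKM at rest, 3.92, 4.21 and 2.80 with anti-IgM, and 1.52, 0.984 and 1.36 with LPS. Ubqln1-/- cells had 3.61, 3.27 and 2.74 at rest, 5.32, 5.58 and 4.55 with anti-IgM, and 1.47, 0.954 and 0.766 with LPS. LPS libraries were the lowest in each genotype, and anti-IgM libraries were above resting ones only in Ubqln1-/- cells. The fall with LPS was 2.67-fold in WT (log2 fold change -1.42, SE 0.24, edgeR adjusted p = 8.03e-05) and 3.05-fold in Ubqln1-/- (-1.61, SE 0.26, adjusted p = 5.14e-05). With anti-IgM the log2 fold change was 0.10 in WT (SE 0.23, edgeR adjusted p = 0.721) and 0.69 in Ubqln1-/- (SE 0.22, adjusted p = 0.0115), and the latter call was lost without Ubqln1-/- resting replicate 3 (adjusted p = 0.0532). These responses were not shown to differ: the difference of 0.59 (SE 0.32) between the genotypes had an unadjusted p of 0.0797 in edgeR and an adjusted p of 1. With the block for replicate number it was 0.58 (SE 0.242), with an unadjusted edgeR p of 0.0272 and again not called after adjustment. The gene overlaps the lncRNA E130112N10Rik, which had 37 to 111 reads per library, and without strand the reads of the pair cannot be told apart.

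Tnfrsf18 (Entrez Gene 21936, chr4:156026322-156028894) encodes GITR, a costimulatory receptor of T cells that is high on regulatory T cells, and it fell with each stimulus. WT replicates 1, 2 and 3 had 10.5, 9.83 and 8.71 RPKM at rest, 5.23, 5.04 and 4.73 with anti-IgM, and 6.13, 5.45 and 5.58 with LPS. Ubqln1-/- cells had 11.5, 8.89 and 10.7 at rest, 5.85, 5.66 and 5.12 with anti-IgM, and 7.08, 5.22 and 5.18 with LPS. Resting libraries were above all stimulated ones, and replicate 1 was highest in all 6 groups. The fall with anti-IgM was 1.93-fold in WT (log2 fold change -0.95, SE 0.13, edgeR adjusted p = 8.31e-06) and 1.86-fold in Ubqln1-/- (-0.90, SE 0.13, adjusted p = 1.2e-05). With LPS it was 1.69-fold in WT (-0.76, SE 0.13, edgeR adjusted p = 8.01e-05) and 1.79-fold in Ubqln1-/- (-0.84, SE 0.13, adjusted p = 4.02e-05). Foxp3, in the T cell list, was at 3.85 to 7.75 RPKM in these libraries, while Cd4 did not exceed 0.0887. Tnfrsf18 overlaps the lncRNA Gm16008, which had 4 to 25 reads per library.

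None of the 9 tested members was called between WT and Ubqln1-/- cells. At rest, with anti-IgM and with LPS, edgeR called 0.0565%, 0.0989% and 0.0424% of all genes between genotypes, and 0 members in each. limma with voom and DESeq2 also called 0 members, and at an unadjusted p under 0.05 edgeR had 597, 728 and 557 of all genes. No member had an adjusted p under 0.05 for a different response of Ubqln1-/- cells to anti-IgM or LPS, and neither had any gene (0% called, with 140 and 220 genes at an unadjusted p under 0.05). At rest, 0 of the 10 members had genotypes that did not overlap, beside 7.89% of all tested genes. With anti-IgM, Cd27 and Tnfrsf9 were higher in every Ubqln1-/- library than in every WT library, 2 of 10 members beside 11.4% of all tested genes. The difference was 0.50 (SE 0.22) on the log2 scale for Cd27 and 0.63 (SE 0.27) for Tnfrsf9, with unadjusted edgeR p-values of 0.0356 and 0.0354 and an adjusted p of 0.904 for each over all genes. With the block for replicate number their unadjusted p-values in edgeR were 0.00688 and 0.021, and their adjusted p-values 0.209 and 0.328. With LPS, Cd40 did not overlap (163 to 165 RPKM in WT and 152 to 158 in Ubqln1-/-), 1 of 10 members beside 7.01% of all genes, and the log2 difference was -0.08 (SE 0.15, edgeR adjusted p = 1). For Tnfrsf13c, Tnfrsf13b, Cd40, Tnfrsf18, Fas and Traf1, the SE of the genotype difference was at most 0.18 on the log2 scale in each condition, and no difference exceeded 0.15 in size. For Cd27 and Tnfrsf9 it was 0.22 to 0.32. For Tnfrsf1b it was 0.27 to 0.28 without a block and 0.064 to 0.066 with the block for replicate number, and the blocked differences were -0.01 at rest, -0.03 with anti-IgM and -0.15 with LPS.

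**Figure D5:**
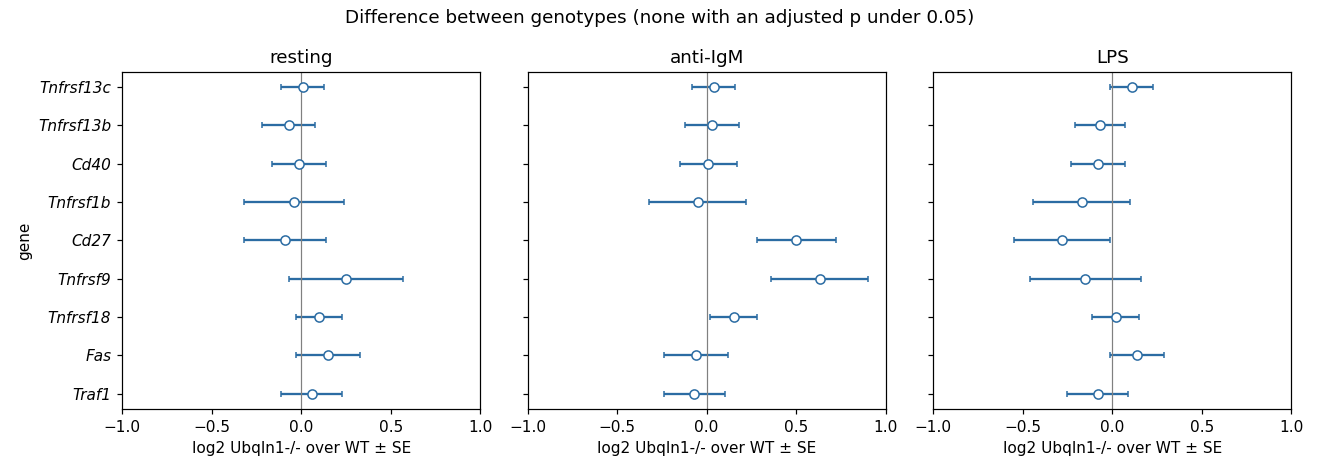
Log2 difference between Ubqln1-/- and WT cells with its standard error (edgeR) for the 9 tested genes at rest, with anti-IgM and with LPS. Most points lie within 1 SE of 0. Cd27 (0.50) and Tnfrsf9 (0.63) with anti-IgM lie farthest from 0, and no point has an adjusted p under 0.05.

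Promoters of the members were read from the RefSeq table of GRCm38.p6, which held 9 of the 10 members (none for Cd40) and 10 starts, as Tnfrsf9 has 2. Those of Traf1 and Fas, the strongest LPS responses, and of Tnfrsf9, which was called with anti-IgM and not with LPS, are shown here as the 250 bases before the start, 5′ to 3′ on the strand of the gene. Traf1 is chr2:34961773-34962022 on the minus strand, Fas chr19:34290409-34290658 on the plus strand, and the Tnfrsf9 starts chr4:150919905-150920154 and chr4:150927749-150927998 on the plus strand. Capitals mark matches to the κB consensus of 10 letters, to the AP-1 consensus TGANTCA, or to the ISRE core of 10 letters, an interferon response element, each searched on both strands.
Traf1: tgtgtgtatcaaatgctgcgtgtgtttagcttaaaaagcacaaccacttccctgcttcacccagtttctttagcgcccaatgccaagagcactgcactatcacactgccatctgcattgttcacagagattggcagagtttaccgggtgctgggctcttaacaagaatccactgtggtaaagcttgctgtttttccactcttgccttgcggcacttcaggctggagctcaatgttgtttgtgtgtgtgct
Fas: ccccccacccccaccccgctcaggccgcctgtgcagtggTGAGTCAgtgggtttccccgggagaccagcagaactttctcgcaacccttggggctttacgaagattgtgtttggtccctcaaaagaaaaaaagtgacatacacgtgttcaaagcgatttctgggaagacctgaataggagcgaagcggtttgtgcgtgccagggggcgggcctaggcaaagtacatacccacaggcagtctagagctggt
Tnfrsf9, upstream start: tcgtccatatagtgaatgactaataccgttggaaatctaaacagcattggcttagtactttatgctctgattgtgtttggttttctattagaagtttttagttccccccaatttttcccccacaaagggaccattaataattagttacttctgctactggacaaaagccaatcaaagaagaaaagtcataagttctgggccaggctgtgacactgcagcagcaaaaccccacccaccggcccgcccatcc
Tnfrsf9, downstream start: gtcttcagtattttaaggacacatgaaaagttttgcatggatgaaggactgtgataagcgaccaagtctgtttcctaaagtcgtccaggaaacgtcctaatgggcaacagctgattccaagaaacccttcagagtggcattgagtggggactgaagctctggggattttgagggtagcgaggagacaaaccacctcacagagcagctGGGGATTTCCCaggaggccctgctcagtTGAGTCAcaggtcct
The downstream start of Tnfrsf9 was the 1 of 10 member promoters with a κB match, as overlapping matches that begin 43 and 42 bases before the start, beside 7.25% of all 32851 promoters. It also held an AP-1 match at 15 bases before the start, as Fas did at 211 bases, 2 of 10 beside 6.75% of all promoters. The ISRE core was found in Tnfrsf17 and Tnfrsf1b, 2 of 10 beside 2.98%. Traf1 held none of these letters in this window. A match describes the sequence only, and which start was used in these cells was not tested.

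Other genes of the system give the setting. Of 19 other receptors of the superfamily, 15 could be tested. With anti-IgM in WT cells 4 rose and 5 fell, beside 32.4% and 32.2% of all genes. With LPS 6 rose and 3 fell, beside 31.2% and 30.1%. Tnfrsf21 (death receptor 6) rose with each stimulus in WT, from 1.18 ± 0.431 to 5.30 ± 0.797 RPKM with anti-IgM (log2 fold change 2.13, SE 0.23, edgeR adjusted p = 4.19e-07) and to 4.64 ± 0.795 with LPS (1.94, SE 0.23, adjusted p = 1.65e-06). Tnfrsf26 fell with each, by 0.87 with anti-IgM and by 1.81 with LPS on the log2 scale in WT cells (SE 0.11 each, edgeR adjusted p = 1.83e-06 and 2.63e-09). Tnfrsf12a (Fn14) rose with anti-IgM (0.83, SE 0.19, edgeR adjusted p = 0.00117), Relt fell slightly (-0.33, SE 0.12, adjusted p = 0.0218), and Tnfrsf19 rose with LPS to 1.99 ± 1.17 RPKM from 0.235 ± 0.193 (3.18, SE 0.49, adjusted p = 2.87e-05). Tnfrsf1a, TNF receptor 1, was named after its values were seen. It was at 0.436 RPKM or less in every library, far below Tnfrsf1b, and rose with LPS in WT cells from 0.148 ± 0.0326 to 0.379 ± 0.0949 RPKM (1.33, SE 0.34, edgeR adjusted p = 0.0026). In Ubqln1-/- cells its log2 fold change with LPS was -0.33 (SE 0.34, edgeR adjusted p = 0.412), and the difference between these responses was -1.66 (SE 0.48, adjusted p = 1). Counts of Tnfrsf1a were low, with at most 10 reads in any resting WT library and 37 in any with LPS. The highest counts in Ubqln1-/- libraries were 17 at rest and 12 with LPS.

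Of 18 TNF family ligands, 10 could be tested. In WT cells 3 rose and 4 fell with anti-IgM, beside 32.4% and 32.2% of all genes. With LPS 5 rose and 0 fell, beside 31.2% and 30.1%. Tnf rose from 2.77 ± 0.765 RPKM at rest to 9.61 ± 0.946 with anti-IgM (log2 fold change 1.76, SE 0.15, edgeR adjusted p = 3.95e-08) and to 29.1 ± 2.43 with LPS (3.36, SE 0.15, adjusted p = 1.05e-10). Ltb (lymphotoxin beta) fell from 273 ± 26.3 to 48.0 ± 7.54 RPKM with anti-IgM (-2.51, SE 0.12, edgeR adjusted p = 1.69e-10). Lta, a ligand of the TNF receptors, rose from 4.77 ± 0.775 to 24.0 ± 2.16 RPKM with LPS (2.33, SE 0.14, edgeR adjusted p = 3.48e-09) and fell to 2.18 ± 0.332 with anti-IgM (-1.13, SE 0.17, adjusted p = 1.64e-05). The ligands of the other members were looked up after the values were seen. Mean levels in every group were at most 0.164 RPKM for Tnfsf13b (BAFF), 0.0742 for Tnfsf13 (APRIL) and 0.0347 for Cd40lg. Tnfsf9, the ligand of 4-1BB, was at 1.77 ± 0.305 RPKM in resting WT cells and 3.10 ± 0.477 with LPS (log2 fold change 0.79, SE 0.22, edgeR adjusted p = 0.00512). With anti-IgM it fell to 1.10 ± 0.21 RPKM in WT cells (-0.69, SE 0.25, edgeR adjusted p = 0.0205), while the Ubqln1-/- change was -0.12 (SE 0.25, adjusted p = 0.701). Fasl, the ligand of Fas, had at most 3 reads in any resting WT library and at most 21 in any with anti-IgM. Its WT levels were 0.0257 ± 0.0445 and 0.307 ± 0.109 RPKM (edgeR adjusted p = 0.0043). In Ubqln1-/- cells the highest counts in a library were 3 and 18 reads (edgeR adjusted p = 0.0522). Cd70, the ligand of CD27, and Tnfsf18, the ligand of GITR, were too low to be tested, with group means of at most 0.549 and 0.301 RPKM.

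All 20 other TRAF and death domain signaling genes were tested. In WT cells 3 rose and 10 fell with anti-IgM, beside 32.4% and 32.2% of all genes. With LPS against rest 8 rose and 7 fell, beside 31.2% and 30.1%. With LPS against anti-IgM, 12 were higher and 0 lower in WT cells, beside 17.4% and 15% of all genes. Birc3 (cIAP2), an ubiquitin ligase held by TRAF2 and TRAF1, was at 110 ± 10.0 RPKM in resting WT cells, 69.0 ± 3.60 with anti-IgM (log2 fold change -0.68, SE 0.08, edgeR adjusted p = 7.7e-07) and 221 ± 4.33 with LPS (1.00, SE 0.08, adjusted p = 2.25e-08). Traf5 fell from 64.2 ± 4.21 to 14.5 ± 0.789 RPKM with anti-IgM (-2.15, SE 0.12, edgeR adjusted p = 5.73e-10) and to 26.4 ± 4.18 with LPS (-1.28, SE 0.12, adjusted p = 1.16e-07), opposite to Traf1. Traf3ip3 also fell with each (-1.78 and -1.27, SE 0.16 each, edgeR adjusted p = 5.98e-08 and 3.06e-06). Traf4 rose with anti-IgM and with LPS (0.84 and 0.97, SE 0.07 each, edgeR adjusted p = 1.63e-08 and 7.92e-09), as did the TRAF-binding protein Tank (0.79 and 0.97, SE 0.13 each, adjusted p = 5.98e-05 and 9.23e-06). Cflar, the inhibitor of caspase 8 (cFLIP), rose with anti-IgM by 0.68 and with LPS by 1.29 on the log2 scale (edgeR adjusted p = 2.34e-05 and 4.09e-08), while Casp8 fell with anti-IgM by 1.22 and with LPS by 0.51 (adjusted p = 1.29e-09 and 1.41e-05). Map3k14 (NIK), the kinase of the alternative NF-kB pathway, fell with anti-IgM (-0.95, SE 0.11, edgeR adjusted p = 8.39e-07) and with LPS (-0.58, SE 0.11, adjusted p = 0.000169). No gene of these lists was called between genotypes.

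The genes with the most similar profile to each member were found by Pearson correlation of log2 CPM over the 18 libraries, which fall into 3 conditions, so the values describe mainly the response to the stimuli and carry no p. For Cd40 they were Birc3 (r = 0.987), Pxn (0.986) and Lta (0.984). Traf1 was nearest to Ppfibp2 (0.991), Rab8b (0.989) and Gadd45b (0.988). Fas was nearest to Dennd4a (0.989), Mybl2 (0.985) and Jade2 (0.983), and Tnfrsf18 to Thap3 (0.980), Tpm1 (0.979) and Gpr137 (0.977). Tnfrsf13b was nearest to Fchsd2 (0.958), Khnyn (0.958) and Slamf1 (0.956), and Cd27 to Wdr81 (0.956), Slc17a9 (0.953) and Zbtb38 (0.947). Lower values were found for Tnfrsf13c, with Usp20 (0.944), Srf (0.934) and Wnt10b (0.927), for Tnfrsf1b, with Cebpb (0.943), Cd86 (0.919) and Rab20 (0.917), and for Tnfrsf9, with Galc (0.847), Tuba1b (0.843) and Xcl1 (0.839).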

How the data were processed

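Total polyA RNA of splenic B cells was sequenced by the authors as single-end 50 base reads (TruSeq v2, HiSeq2500, unstranded). GSNAP alignment to GRCm38 was done by the authors, who deposited, per library, the read count and the RPKM of 28096 Entrez genes. The deposited counts were not normalized, and the counting program is not given in the sources used here. Deposited RPKM served only as an alternative level. RefSeq (GRCm38.p6) gave symbols for 89.1% of genes, positions and promoters.

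From the counts, edgeR 4.0.16 in R 4.3.3 was run with TMM scaling (factors 0.958 to 1.038), its expression filter (14161 genes), 1 term per group over 18 libraries and a quasi-likelihood test in 11 comparisons, adjusted by Benjamini-Hochberg over all tested genes. The SE was the size of the log2 fold change divided by the square root of F. Log2 CPM used a prior count of 2. Scripts were tested on simulated data. Replicate 1 carries no number in the labels and was numbered by elimination. The labels do not say that equal numbers share an experiment. The paper describes its RNASeq values as coming from independent experiments and used paired T tests, without saying which libraries form a pair. Libraries with the same number deviated together from their group means: 45 pairs had a mean correlation of 0.266 (43 over 0.1). In 8 of 11 comparisons every such pair was over 0.1. For each of the 18 libraries, every correlation with its own number was above every correlation with another number. The 90 pairs with different numbers had a mean of -0.132. Taking deviations from group means makes this value negative when the same-number value is positive, so it is not a separate observation. P-values measure the spread between these libraries.

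The members, gene lists and tests were chosen with earlier results of these data known. Besides the members, text genes were up to 3 rising and 3 falling per list and stimulus, called in both genotypes the same way, with at least 10 CPM in the higher group and the largest change in WT, and the 3 genes most correlated with each member. Alternatives were limma 3.58.1 with voom, DESeq2 1.42.0, another normalization (RLE), other filters, a replicate block, fits on the compared groups alone, the study's thresholds and leaving out each library. 1 further B cell marker is not reported here.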

Additional observations from a re-analysis of the deposited data

How the results depend on the processing

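Depth limits Tnfrsf17, which had at most 8 reads per library, and the 3 libraries per group limit differences between genotypes. Of 675 log2 fold changes of members under other settings than leaving out a library, 663 kept their side of the threshold and 12 passed it newly; none of the called ones was lost or reversed. Of 702 with 1 library left out, 692 kept it, 5 lost it (Tnfrsf13c and Cd27 with anti-IgM, given above) and 5, all of Tnfrsf1b, passed it newly. In 8 and 86 of these fits a difference that was called in neither fit changed its sign.

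With the study's thresholds (log2 fold change over 2 in size and adjusted p under 0.001), the number of members called dropped to 0 for anti-IgM in WT and in Ubqln1-/- cells, to 2 for LPS in each genotype, to 2 for LPS against anti-IgM in WT and to 3 in Ubqln1-/- cells. The replicate block added Tnfrsf1b (adjusted p from 1.21e-07 to 0.0402 in 5 comparisons) and Tnfrsf13c (0.0424 and 0.00862, LPS against anti-IgM), and changed no other call. Without a filter beyond a total of 1 count, Tnfrsf1b was called with anti-IgM (edgeR adjusted p = 0.0489 in WT and 0.0415 in Ubqln1-/-). Fits on the compared groups alone called Tnfrsf9 for LPS against anti-IgM in WT cells (edgeR adjusted p = 0.0273) and Tnfrsf1b in Ubqln1-/- cells with anti-IgM (0.011) and LPS (0.0404). Over all genes, the calls between genotypes at rest, with anti-IgM and with LPS were 8, 14 and 6, and became 49, 94 and 125 with the replicate block, 32, 47 and 51 with DESeq2, and 5, 2 and 2 in fits on the compared groups alone, with no member among them. Deposited RPKM were 83.9% to 89.2% of those computed here, because they divide by a larger total, and leaving out TMM scaling gave 96.7% to 103%. The cause of the other changes was not tested.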
